A study of Mus musculus with 4 samples.

Results

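Levels of the Ces1 carboxylesterase genes were compared between liver of untreated NSG mice and liver of NSG mice given JIB-04. The genes were the 6 rows of the deposited gene table named Ces1b, Ces1c, Ces1d, Ces1e, Ces1f and Ces1g, out of 56748 genes. All 6 had a mean of at least 1 FPKM over the 4 libraries and were among the 10819 genes tested. FPKM is fragments per kilobase of gene length, scaled by a divisor close to the reads of the library. NSG is an immunodeficient strain without mature B, T and natural killer cells, and the labels give the genotype of all 4 animals as WT. The untreated group (2 mice) is labelled as untreated, not as vehicle, so compound and gavage cannot be told apart. The JIB-04 group (2 mice) received 55 mg/kg of JIB-04, a compound that blocks histone demethylases of the Jumonji family, by oral gavage, in 5 doses at 2 per week. Each library came from the liver of a separate mouse, and the labels give no ages.

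Carboxylesterases are serine hydrolases that cleave ester, amide and thioester bonds, and liver holds large amounts of them. Enzymes of the Ces1 group activate or inactivate ester drugs and also act on lipids: some of them release fatty acids from stored triacylglycerol for secretion in very low density lipoprotein. Most members stay in the lumen of the endoplasmic reticulum, held there by a short signal at the end of the protein (histidine, any residue, glutamate, leucine), whereas the mouse plasma carboxylesterase, the product of Ces1c, is secreted by the liver.

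The ends of the coding sequences show how the members divide by this signal. Each line gives the last 21 bases of the longest coding transcript in GENCODE M21 (GRCm38), with the final 4 codons before the stop codon in capitals.
Ces1b: gagcacAGAGAACACAAAtga
Ces1c: gaacacACAGAACACAAAtga
Ces1d: agggaaCATGTTGAGCTCtga
Ces1e: acagaaCACACTGAGCTGtga
Ces1f: ccatacCACAATGAGCTGtga
Ces1g: agggaaCATGTTGAACTGtga
The capitals of Ces1d, Ces1e, Ces1f and Ces1g are codons for histidine, any residue, glutamate and leucine. Those of Ces1b and Ces1c are not. The coding sequences of Ces1b and Ces1c, of 1701 and 1662 bases, were also the most alike of the 15 pairs, with 88.8% identical alignment columns, against 71.8% (Ces1b with Ces1f) to 81.5% (Ces1d with Ces1g) for the other pairs. These are reference sequences of another strain, and the alleles of the NSG mice were not examined.

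On the GRCm39 coordinates of the deposited table, the 6 genes lie in tandem on the minus strand of chromosome 8, within 280.6 kb (93783356 to 94063936). Their order by coordinate is Ces1b (93783356 to 93806645), Ces1c (93825643 to 93857911), Ces1d (93892696 to 93924466), Ces1e (93927846 to 93956247), Ces1f (93982864 to 94006375) and Ces1g (94028997 to 94063936). The nearest tested protein-coding gene on the lower side was Fto, 1388 kb away.

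Both JIB-04 livers held more Ces1 transcript in sum than both untreated livers, and the ratio of means ranged from 1.07 for Ces1b to 2.18 for Ces1d. Ces1d and Ces1g passed the test (limma on log2(FPKM + 1), Benjamini-Hochberg adjusted p under 0.05 over all tested genes), both higher with JIB-04, and 4 members did not pass. Thus 2 of 6 members were called higher, where 1.53% of all tested genes were called higher, and 0 of 6 were called lower, where 0.619% of all tested genes were (2.14% in either direction). By voom, on reads recovered from the FPKM values, again 2 were higher and 0 lower, against 2.24% and 1.5% of all tested genes. At an unadjusted limma p under 0.05, 5 were higher and 0 lower, against 9.06% and 6.47% of all tested genes. In 5 of 6 members both JIB-04 libraries lay above both untreated libraries, as in 24.6% of tested genes, and 0 of 6 lay the other way (21.8% of tested genes, and 46.4% in either direction). The median log2 change was 0.55 over the 6 members and 0.01 over all tested genes. Neither call held when 1 library was left out, whichever library it was (0 of 6 members called each time). The values follow with each gene.

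**Figure D1:**
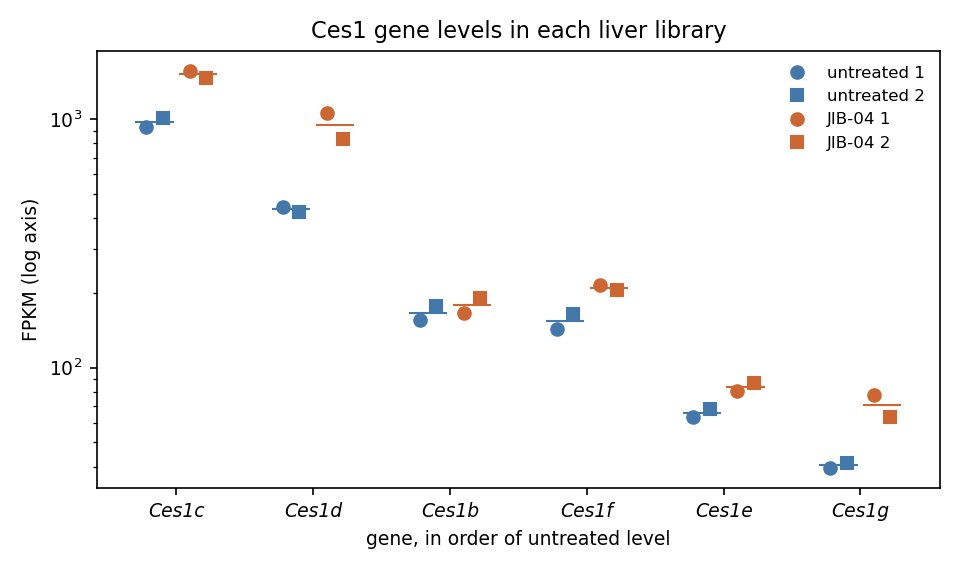
FPKM of the 6 Ces1 genes (log axis) in 2 untreated (blue) and 2 JIB-04 (orange) liver libraries, with a line at each group mean. Only the points of Ces1b overlap between the groups. FPKM uses the gene lengths of the table, on which the relative place of Ces1b and Ces1f depends.

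Ces1d encodes triacylglycerol hydrolase, an enzyme of the endoplasmic reticulum that mobilizes stored lipid for lipoprotein assembly. In untreated 1 and 2 its level (ENSMUSG00000056973) was 444 and 423 FPKM. In JIB-04 1 and 2 it was 1062 and 832 FPKM. Both JIB-04 livers were well above the untreated pair, and they differed more from each other than the untreated livers did. The group means were 433 ± 15.4 and 947 ± 162 FPKM (SD, n = 2), a 2.18-fold difference. The log2 change was 1.11 (SE 0.164, 95% interval 0.72 to 1.51, limma adjusted p = 0.0267), the largest of the 6. Reads recovered for Ces1d numbered 38603 and 37822 in untreated and 107813 and 72357 in JIB-04 libraries. Leaving out untreated 1 or 2 gave an adjusted p of 0.0520 or 0.0617, and leaving out JIB-04 1 or 2 gave 0.155 or 0.123. The limma adjusted p ran from 0.00516 to 0.213 over 16 alternatives, of which 10 kept the call.

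Ces1g encodes a further lipid-hydrolysing esterase of the endoplasmic reticulum. It was the lowest member in untreated liver (ENSMUSG00000057074). It stood at 39.5 and 41.4 FPKM in untreated 1 and 2 and at 77.3 and 63.5 FPKM in JIB-04 1 and 2. The groups did not overlap. Means were 40.4 ± 1.35 and 70.4 ± 9.78 FPKM (SD, n = 2), a 1.74-fold difference, with a log2 change of 0.78 (SE 0.139, 95% interval 0.45 to 1.11, limma adjusted p = 0.0457). The call was close to the threshold: leaving out untreated 1 or 2 gave an adjusted p of 0.161 or 0.117, and leaving out JIB-04 1 or 2 gave 0.171 or 0.123. These lay within 0.0134 to 0.273 over 16 alternatives, of which 6 kept it.

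Ces1c, the gene of the plasma carboxylesterase, had the highest level of the family in every library (ENSMUSG00000057400). It was at 926 and 1013 FPKM in untreated 1 and 2 and at 1568 and 1467 FPKM in JIB-04 1 and 2. By mean FPKM it ranked 44th of all genes in untreated and 38th in JIB-04 liver. The groups did not overlap, and the ratio of means was 1.56. The log2 change of 0.65 (SE 0.145, 95% interval 0.30 to 0.99) did not pass the test (limma adjusted p = 0.0852, and 0.0511 to 0.439 over the alternatives). On the quantile-normalized scale it was 0.32.

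Ces1f, known as a second triacylglycerol hydrolase, was at 143 and 164 FPKM in untreated 1 and 2 (ENSMUSG00000031725). In JIB-04 1 and 2 it was at 214 and 204 FPKM, without overlap between the groups. Its log2 change was 0.45 (95% interval 0.13 to 0.77, limma adjusted p = 0.168). Ces1e encodes egasyn, which binds beta-glucuronidase and keeps part of it in the endoplasmic reticulum (ENSMUSG00000061959). It was at 63.0 and 67.9 FPKM in untreated 1 and 2 and at 80.7 and 86.4 FPKM in JIB-04 1 and 2. The groups did not overlap here either. The difference was the smallest among the 5 members without overlap, at 0.35 on the log2 scale (95% interval 0.06 to 0.64, limma adjusted p = 0.231). Neither gene passed under any of 16 alternatives (lowest adjusted p 0.120 for Ces1f and 0.174 for Ces1e). Gusb, the gene of the beta-glucuronidase that egasyn binds, averaged 7.84 ± 0.370 and 11.3 ± 0.0990 FPKM (SD, n = 2, limma adjusted p = 0.102).

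Ces1b, the neighbour most like Ces1c in sequence, was at 155 and 178 FPKM in untreated 1 and 2 (ENSMUSG00000078964). It was at 166 and 190 FPKM in JIB-04 1 and 2, and the groups overlapped. The log2 change was 0.10 (SE 0.143, limma adjusted p = 0.822). Its 95% interval of -0.24 to 0.44, or 0.845-fold to 1.35-fold, does not show that the level was the same in both groups. The change turned to -0.04 with quantile normalization, and to values within 0.01 of 0 without untreated 1 and without JIB-04 2.

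**Figure D2:**
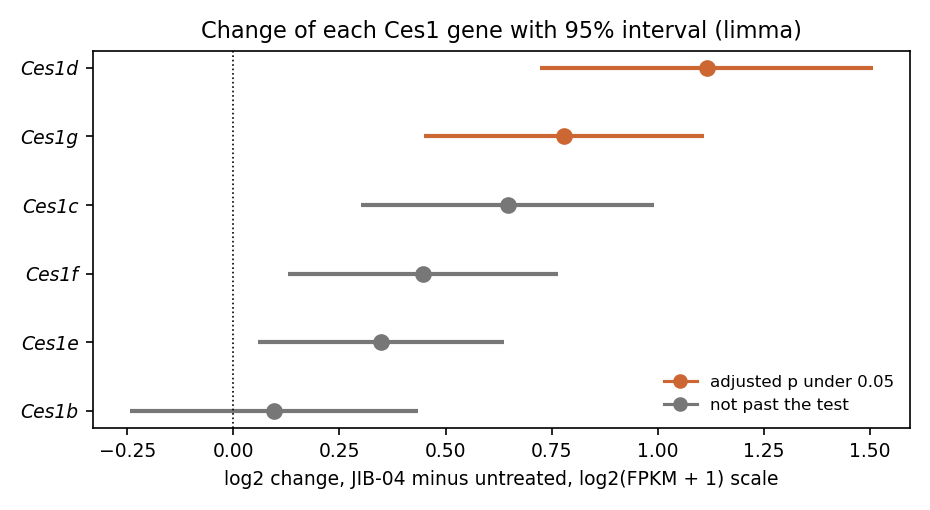
Log2 change of each Ces1 gene (JIB-04 minus untreated, log2(FPKM + 1) scale, 2 libraries per group) with its 95% interval from limma. The intervals of 5 genes lie above 0 before adjustment for the number of genes tested, and Ces1d and Ces1g (orange) passed after adjustment.

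FPKM is a level per gene length, and the order of the members depends on the length used. In both groups Ces1c had the highest mean FPKM and Ces1d the next, Ces1b and Ces1f stood between Ces1d and Ces1e, and Ces1g was lowest. In untreated liver Ces1b and Ces1f overlapped between libraries, with Ces1b the higher by mean, and in JIB-04 liver Ces1f was the higher without overlap. The table gives Ces1f a length of 3285 bases, against 1926 for its longest coding transcript in GENCODE M21, while the length of Ces1b is 1964 bases in both. Per base of these transcripts Ces1f lay above Ces1b in all 4 libraries, so the order of these genes cannot be settled here. The other members kept their places. Ratios between members within a library do not depend on scaling between libraries, but their level depends on the lengths. The ratio of Ces1f to Ces1b in FPKM was 0.922 in untreated 1 and 0.923 in untreated 2, and 1.29 in JIB-04 1 and 1.07 in JIB-04 2. Per base of transcript it was 1.573 and 1.575 in untreated, against 2.21 and 1.83 in JIB-04 libraries. The ratio of Ces1d to Ces1b was 2.86 and 2.38 in untreated libraries, against 6.404 and 4.37 in JIB-04 libraries. Ces1c to Ces1b gave 5.97 and 5.70, against 9.46 and 7.70. Ces1g to Ces1e gave 0.626 and 0.610, against 0.958 and 0.735. For these 4 pairs the ratio was higher in both JIB-04 libraries, and highest in JIB-04 1. With 2 libraries per group the smallest p of an exact permutation test (two-sided) is 0.333, and the ratios are therefore given as values. The 4 pairs were chosen after the levels were seen, and each sets a member with the larger fold over one with a smaller fold. Their higher ratios in JIB-04 libraries therefore restate the levels given above and add no evidence. Ratios of Ces1d to Ces1c, Ces1g and Ces1e were also computed, with the larger fold on top again, and were higher in both JIB-04 libraries too.

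The JIB-04 libraries also differed from each other by gene. JIB-04 1 was the higher for Ces1c, Ces1d, Ces1f and Ces1g, and JIB-04 2 was the higher for Ces1b and Ces1e. Untreated 2 was the higher of the untreated pair for every member but Ces1d.

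Summed over the 6 genes, the Ces1 pool was 1771 and 1887 FPKM in untreated 1 and 2 and 3168 and 2843 FPKM in JIB-04 1 and 2. The JIB-04 mean was 1.64 times the untreated mean, and 1.55 to 1.73 times it with 1 library left out. As a share of all recovered reads it was 0.420% and 0.460% in untreated and 0.748% and 0.681% in JIB-04 libraries. Ces1c made up 52.3% and 53.7% of this pool in untreated and 49.5% and 51.6% in JIB-04 libraries. The share of Ces1d was 25.1% and 22.4% in untreated and 33.5% and 29.3% in JIB-04 libraries, and that of Ces1b was 8.76% and 9.42% against 5.23% and 6.70%. The groups did not overlap in the share of any of the 6 members, so this is not particular to Ces1d and Ces1b. The shares of Ces1c, Ces1e and Ces1f were also lower in both JIB-04 libraries. That of Ces1g was higher by little (2.228% and 2.193% in untreated, 2.442% and 2.234% in JIB-04 libraries). The 4 genes whose coding sequence ends in the retention signal summed to 690.0 and 696 FPKM in untreated and 1434 and 1186 FPKM in JIB-04 libraries (1.89-fold). Ces1b and Ces1c together were at 1081 and 1191 FPKM in untreated and 1734 and 1657 FPKM in JIB-04 libraries (1.49-fold). No p is given for these sums of chosen genes. Ces1d held most of the sum of the 4 genes, with a mean of 433 of 693 FPKM in untreated and 947 of 1310 FPKM in JIB-04 liver. By gene the folds were 2.18 (Ces1d), 1.74 (Ces1g), 1.36 (Ces1f) and 1.28 (Ces1e), against 1.56 (Ces1c) and 1.07 (Ces1b). The sets were thus not apart by gene. In bulk tissue, more RNA per cell and a larger share of cells that express a gene cannot be told apart.

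**Figure D3:**
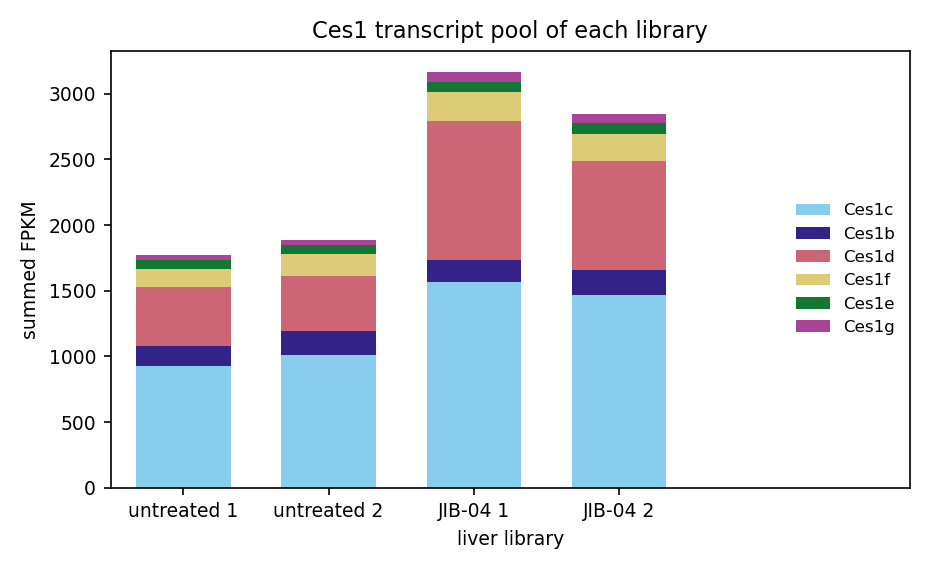
Summed FPKM of the 6 Ces1 genes in each of 4 liver libraries, stacked by gene. The stacks reach 1771 and 1887 FPKM in untreated and 3168 and 2843 FPKM in JIB-04 libraries, and the Ces1d layer takes a larger share of the JIB-04 stacks.

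Close paralogs can exchange reads, and the labels name neither the read counter nor its handling of reads with several matches. Of all windows of 50 bases along the longest coding transcript, 17.0% of those of Ces1c and 11.6% of those of Ces1b also occurred in a transcript of another gene (GENCODE M21). For the other 4 members this share was between 1.28% (Ces1d) and 3.21% (Ces1e). The levels of Ces1b and Ces1c are therefore less certain one by one than as the sum given above. That sum is not free of exchange either. Ces1c also shares windows with Ces1a, Ces1e, Ces1g, Ces1h and the pseudogene Gm45910, and Ces1b with Ces1d and Gm45910.

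The remaining Ces1 genes of the table, at both ends of the cluster, had little signal. Ces1a was at 0.104 to 0.328 FPKM in the 4 libraries, and Ces1h had 2 reads, both in JIB-04 1. Of the other annotated genes between Ces1b and Ces1g, the pseudogene Gm45910 was under the filter (0.190 and 0.475 FPKM in untreated, 0.721 and 0.923 FPKM in JIB-04 libraries), and the pseudogene Gm45727 averaged 2.75 ± 0.423 and 2.90 ± 1.16 FPKM (SD, n = 2, limma adjusted p = 0.978). Gm45909, a transcript model of the TEC class, 1031 bases long, inside Ces1d and on the same strand, averaged 5.06 ± 0.944 and 10.4 ± 1.14 FPKM (SD, n = 2, limma adjusted p = 0.0398). It kept that call in 8 of 15 alternatives, with adjusted p between 0.0214 and 0.270, and lost it without untreated 1 (0.138), JIB-04 1 (0.189) or JIB-04 2 (0.191) and by voom (0.0510). Reads of Gm45909 and of unspliced Ces1d RNA cannot be told apart. Outside the cluster, Fto averaged 2.31 ± 0.313 FPKM in untreated and 2.24 ± 0.393 FPKM in JIB-04 liver (SD, n = 2, limma adjusted p = 0.956).

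**Figure D4:**
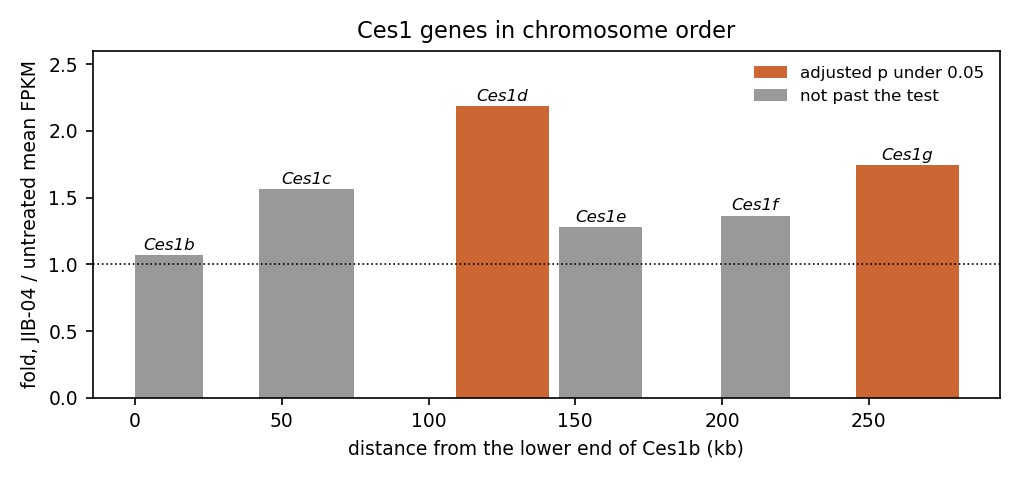
Fold (ratio of mean FPKM, JIB-04 over untreated, 2 libraries each) of the 6 Ces1 genes, drawn at their positions in kb from the lower end of Ces1b. Bar width is gene length on the chromosome, and the largest folds, of Ces1d and Ces1g, stand apart with Ces1e (1.28) and Ces1f (1.36) between them.

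The promoters of Ces1b, Ces1c, Ces1e and Ces1g were read from a RefSeq table (GRCm38.p6). That source lists no window for Ces1d or Ces1f, so their promoters were not examined. They are shown because Ces1b and Ces1c are alike in sequence and had folds of 1.07 and 1.56. Each line gives the 250 bases before an annotated start, on the minus strand, with every TTATGTAA in capitals.
Ces1b, chr8:93079941-93080190: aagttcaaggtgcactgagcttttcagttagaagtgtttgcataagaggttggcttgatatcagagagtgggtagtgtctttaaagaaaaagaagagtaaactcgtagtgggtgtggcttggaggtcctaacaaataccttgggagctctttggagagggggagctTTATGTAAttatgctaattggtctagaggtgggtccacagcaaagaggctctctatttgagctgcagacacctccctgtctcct
Ces1c, chr8:93131284-93131533: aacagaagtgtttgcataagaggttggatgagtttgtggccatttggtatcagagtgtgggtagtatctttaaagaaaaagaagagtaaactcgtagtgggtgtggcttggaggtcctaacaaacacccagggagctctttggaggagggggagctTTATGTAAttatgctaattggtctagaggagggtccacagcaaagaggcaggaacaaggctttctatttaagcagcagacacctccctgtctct
Ces1e, chr8:93229620-93229869: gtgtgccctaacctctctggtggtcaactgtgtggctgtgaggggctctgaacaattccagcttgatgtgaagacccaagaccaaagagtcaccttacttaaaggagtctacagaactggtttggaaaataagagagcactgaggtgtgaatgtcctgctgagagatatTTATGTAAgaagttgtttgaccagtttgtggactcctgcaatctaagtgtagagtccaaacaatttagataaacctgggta
Ces1g, chr8:93337210-93337459: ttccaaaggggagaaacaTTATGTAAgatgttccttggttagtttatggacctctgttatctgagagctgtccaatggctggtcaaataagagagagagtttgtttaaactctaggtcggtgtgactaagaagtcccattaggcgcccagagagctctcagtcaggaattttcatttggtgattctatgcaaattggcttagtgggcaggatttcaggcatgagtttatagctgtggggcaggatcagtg
The windows of Ces1b and Ces1c had 80.4% identical alignment columns, against 43.9% to 53.7% for the other pairs of these 4 windows. Both held TTATGTAA, 84 bases before the start in Ces1b and 94 in Ces1c, within a stretch of shared sequence. Ces1e held it 81 bases and Ces1g 232 bases before the start. TTATGTAA, searched on both strands, occurred in the window of 4 of 4 of these genes and in 0.819% of the 32851 promoter windows of that length in the table. Counted by window, as the background is, it was in 4 of 5 windows of these genes. The motif was picked after the sequences were read, so its share in them was fixed by that choice and shows no excess. TTATGTAA has the form of the D-box, which PAR bZIP factors such as DBP can bind. For Ces1b the table lists a further start upstream, whose window does not hold the whole motif. The nuclear receptor half-site AGGTCA was found in 0 of the 4 genes' windows, on either strand, and in 14.02% of all windows. Its variant AGTTCA was found in Ces1b (11.8% of all windows). The antioxidant response element core TGACNNNGC was found in 0 of 4 (10.2% of all windows). TATAAA was found in Ces1g, 26 bases before the start, on the reverse strand (12.4% of all windows). A match of letters is a description and not a binding site. No match says only that these letters are absent from these windows.

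Outside the 6 members, the table held 13 of 14 listed carboxylesterase genes, Ces1a and Ces1h among them. Of these 6 were tested, 3 rose (Ces2a, Ces2c and Ces2g), 0 fell and 3 did not pass by limma, with a median log2 change of 0.38. Over all tested genes 1.53% were called higher and 0.619% lower. Voom called 3 higher and 1 lower, and 3 were higher and 1 lower at an unadjusted limma p under 0.05. Ces2a, a drug-hydrolysing esterase, had a log2 change of 3.71 (limma adjusted p = 0.000153), larger than that of any Ces1 member. Ces2g rose from 18.1 ± 0.114 to 29.4 ± 0.145 FPKM (SD, n = 2, limma adjusted p = 0.0399), and lost its call without any 1 of the 4 libraries (adjusted p 0.144 to 0.192). Ces2c averaged 1.40 and 5.49 FPKM, with 0.890 and 1.90 FPKM in untreated 1 and 2, and kept its call in 10 of 15 alternatives. The call was lost with no filter (limma adjusted p = 0.241) and with a pseudocount of 0.1 (0.0635). It was also lost with TPM scaling after removal of mitochondrial and the 50 most abundant genes (0.0536). The same held without JIB-04 1 (log2 change 1.54) or JIB-04 2 (1.40). The difference between these genes and the Ces1 genes was not tested.

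In each of the following lists of other genes limma called 0 or 1 gene, where it called 2.14% of all tested genes. Voom called 2.24% of all tested genes higher and 1.5% lower. At an unadjusted limma p under 0.05, 9.06% of all tested genes were higher and 6.47% lower. The lists are short, and the counts are no result about them. Of 25 tested genes of triacylglycerol hydrolysis, lipid droplets and lipoprotein assembly, 1 rose, 0 fell and 24 did not pass by limma, with a median log2 change of 0.0012. Voom called 2 higher and 1 lower, and 4 were higher and 2 lower at an unadjusted limma p under 0.05. The one that rose was Tm6sf2, which takes part in loading lipid onto lipoprotein. It went from 19.7 ± 0.136 to 37.7 ± 2.36 FPKM (SD, n = 2, limma adjusted p = 0.0186), a call lost without any 1 of the 4 libraries (0.0640 to 0.127). Of 11 tested genes of cholesteryl ester handling 0 were called by limma, with a median of 0.04, whereas voom called 1 higher and 1 lower, and 3 were higher and 2 lower at an unadjusted limma p under 0.05. Another list held 13 tested hydrolases of esters, amides or epoxides. In it Ephx1, the microsomal epoxide hydrolase, rose, 0 fell and 12 did not pass by limma, with a median of 0.12. Ephx1 went from 153 ± 0.880 to 393 ± 86.3 FPKM (SD, n = 2, limma adjusted p = 0.0178). In that list voom called 2 higher and 0 lower, and 2 were higher and 1 lower at an unadjusted limma p under 0.05. Ephx1 lost its call without JIB-04 1 (0.0684) or JIB-04 2 (0.123). Of 13 tested nuclear receptors and other factors that act on liver carboxylesterase or lipid genes, 0 were called by limma, with a median of -0.12, whereas voom called 1 lower and 0 higher, and 3 were lower and 1 higher at an unadjusted limma p under 0.05.

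The protein-coding genes nearest to each member in pattern over the 4 libraries were found by the root-mean-square difference of log2(FPKM + 1) after centring each gene on its mean. The 2 nearest of 9646 genes were Gm10053 (0.00842) and Wbp1 (0.00877) for Ces1b and Srxn1 (0.0156) and Xk (0.0191) for Ces1c. For Ces1e they were Ugt2b5 (0.0125) and Psma3 (0.0127), and for Ces1f Egln3 (0.0182) and Gpat4 (0.0215). For Ces1g they were Ugt1a9 (0.0322) and E2f3 (0.0464). The nearest to Ces1d were Hspa1a (0.0692) and Fcor (0.0770). At low levels the pseudocount of 1 shrinks a change on this scale, and nearness does not mean an equal fold. The ratio of means was 4.93 for Hspa1a and 4.89 for Fcor, at 0.348 and 0.515 FPKM in untreated liver, against 2.18 for Ces1d. It was 2.43 for Xk, at 0.708 FPKM, against 1.56 for Ces1c, 2.04 for E2f3 against 1.74 for Ces1g, and 1.55 for Egln3 against 1.36 for Ces1f. With 4 libraries and so many genes, such nearness is a description.

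From 36469514 to 43283827 reads were recovered per library. The libraries held hepatocyte markers at high level. Their sum over 9 genes, mostly Alb, was 65943 and 63340 FPKM in untreated and 46574 and 38488 FPKM in JIB-04 libraries. This sum was lower in both JIB-04 livers, but limma called 0 of the 9 genes higher and 0 lower. The summed level of 6 neutrophil markers was 26.5 and 6.87 FPKM in untreated and 44.5 and 71.7 FPKM in JIB-04 libraries. That of 6 erythroid markers was 2952 and 1845 against 655 and 1782 FPKM. Macrophage, endothelial, stellate and bile duct markers overlapped between the groups, except that the 7 stellate and fibroblast markers summed to 55.6 and 42.7 FPKM in untreated and 40.5 and 38.6 FPKM in JIB-04 libraries. Of 7 markers of lung, kidney and intestine, which also make carboxylesterases, the sum was 86.9 and 74.7 against 32.9 and 40.0 FPKM. Nearly all of it was Fabp2, the only 1 of the 7 that reached the filter, and limma called Fabp2 lower. Slc34a1 and Umod were at 0. The 8 lymphocyte markers summed to at most 0.168 FPKM, with 5 at 0 in every library. The part of these differences in the Ces1 values was not tested.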

How the data were processed

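Liver RNA of 4 mice (2 untreated, 2 JIB-04) was measured. The authors deposited 1 table of FPKM values, 1 column per library, with gene lengths and GRCm39 coordinates (the build is per the submitters' processing notes). No label names the aligner, the counter, the annotation release or the strand setting. Multiplied by gene length, 100% of values in each library were whole multiples of what 1 read is worth (tolerance 0.01), which gave the reads. The FPKM divisor was 0.997 and 1.024 times the recovered reads in untreated 1 and 2. In JIB-04 1 and 2 it was 0.990 and 1.007 times the recovered reads. No interval was drawn from these reads, which would cover counting error only.

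Genes with mean FPKM of at least 1 were tested with limma 3.58.1 in R 4.3.3 on log2(FPKM + 1) (trend and robust moderation, two-sided, Benjamini-Hochberg over 10819 genes). A log2 change is on that scale, and a fold is the ratio of mean FPKM. The method was tested on simulated counts with the same spread setting for every gene. That test does not show how far calls from 2 mice per group can be relied on. Alternatives were other pseudocounts, filters, scalings and moderation, a fit of protein-coding genes only, voom on the reads, a replicate block, and each library left out. For Ces2a, Ces2c, Ces2g, Tm6sf2, Ephx1 and Gm45909 they were added after seeing the data. The members and lists were chosen with earlier results of these data known. Genes named were the members, genes within the cluster and next to it (1 is not reported here), called list members (up to 4 by p) with Gusb, and the 2 genes nearest in pattern to each member. Sequences came from RefSeq and GENCODE tables of GRCm38, aligned with Biopython 1.88, and no coordinates were converted.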

Additional observations from a re-analysis of the deposited data

How the results depend on the processing

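The calls of Ces1d and Ces1g were lost under several settings, and both changes stayed positive in all 16. Of the 6 members 2 were called with pseudocounts of 0.1 and 0.5, a mean FPKM of at least 5, voom, a fit of protein-coding genes only and the replicate block. With no filter (genes above 0 in at least 1 library) 0 were called, with Ces1d at an adjusted p of 0.213 (log2 change 1.11) and Ces1g at 0.273 (0.78). Quantile normalization also left 0, with Ces1d at 0.0618 (0.93) and Ces1g at 0.0741 (0.72). Rescaling to TPM left 1, Ces1d, with Ces1g at 0.0511 (0.78), as did TPM after removal of mitochondrial and the 50 most abundant genes (0.0602, 0.73), centring on the median (0.0501, 0.77) and limma with neither trend nor robust moderation (0.0696, 0.78). Without 1 library at a time the members called numbered 0 in each case, with log2 changes of 0.94 to 1.29 for Ces1d, 0.64 to 0.92 for Ces1g and -0.0028 to 0.20 for Ces1b. The sign of the Ces1b change turned with quantile normalization (-0.042), without untreated 1 (-0.00044) and without JIB-04 2 (-0.0028). Ces1c, Ces1e and Ces1f stayed positive and not called in all 16 alternatives. The cause of these changes was not tested. The summed ratio of 1.64 moved to between 1.55 and 1.73 (1.64 with transcript lengths in place of the table's gene lengths, an alternative chosen after seeing the data).

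Over all genes 165 were called higher and 67 lower. With no filter these were 20 and 0 (25266 tested), with protein-coding genes only 256 and 141, and with voom 242 and 162. Without 1 library, 22 to 107 were higher and 1 to 54 lower. Higher genes were 71.1% of calls, and 60.7% with TPM after that removal and 59.9% with voom. The replicate block gave 236 higher and 121 lower, with Ces1d at an adjusted p of 0.0112 and Ces1g at 0.0343. The numbers do not pair the mice: the correlation between the replicate differences of the 2 groups was -0.049 over tested genes. Fits without a library assume that the lone sample varies like the other groups, and 2 mice per group limit every statement here.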
